A study of Mus musculus with 18 samples.

Results

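Cholesterol synthesis and its control by sterol regulatory element-binding proteins (SREBPs) were followed through 30 genes in mouse CD8+ T cells. The genes were taken by name from a list of the pathway, chosen with earlier results of these data known. Their counts beside the shares of all genes are therefore description and not a test. All 30 of the 30 genes were measured among 14695 genes. They comprised 8 enzymes of the mevalonate and isoprenoid steps, 11 enzymes that make and modify squalene and the sterol rings, 7 regulators of the SREBPs and 4 carriers of sterol inside the cell. Poly-A RNA was sequenced from primary CD8+ T cells of spleen and lymph node in 6 groups of 3 libraries. A CRISPR/Cas9 cut was aimed at Rosa26 (a neutral locus, the control genotype), at Atf4 (ATF4 KO) or at Cebpg (CEBPG KO). Each genotype was cultured for 24 hours with no treatment or with halofuginone, an inhibitor of prolyl-tRNA synthetase that sets off the amino acid branch of the integrated stress response. All groups, the controls included, thus carried a Cas9 cut. The labels used here state no guides, share of edited cells, drug dose, strain, age or sex. Whether the 3 libraries of a group stem from different animals or cultures is likewise unstated, and each p-value therefore reflects library-to-library spread, which may be technical.

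Cells make cholesterol from acetyl-CoA through mevalonate, the isoprenoid diphosphates, squalene and lanosterol. When sterol in the endoplasmic reticulum is low, SCAP escorts the SREBPs to the Golgi, where the proteases encoded by Mbtps1 and Mbtps2 release the active factors, which switch on the enzymes of the pathway. When sterol is high, the INSIG proteins hold SCAP and the SREBPs back, and oxysterols activate the LXR receptors, which drive sterol export. Activated CD8+ T cells raise this pathway to build membrane as they grow. ATF4 is the main transcription factor of the integrated stress response, and C/EBP-gamma, the product of Cebpg, is one of its binding partners.

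Library totals ran from 14190361 to 20281602 counts. Levels below are CPM, counts scaled to a common library size with TMM factors, ± the SD of 3 libraries, and a difference is a log2 fold change ± its standard error from edgeR, with p-values adjusted by Benjamini-Hochberg over all 14695 genes. The mRNA of the targeted genes was present in each knockout, which a small frameshift edit allows, so mRNA level does not check the edit. Atf4 stood at 268 ± 12.5 CPM in untreated Rosa26 and 285 ± 14.4 CPM in untreated ATF4 KO cells, and Cebpg at 53.7 ± 1.28 CPM in untreated Rosa26 and 56.4 ± 2.33 CPM in untreated CEBPG KO cells. With the drug Cebpg stood at 173 ± 8.67 CPM in Rosa26, 130.5 ± 7.29 CPM in ATF4 KO and 101 ± 6.37 CPM in CEBPG KO cells. All 5 of 5 CD8 T cell markers were measured, with summed levels of 3070 to 3320 CPM untreated and 2420 to 3340 CPM with the drug. Of the other lineages, B cells were represented by 1 of 4 markers (Cd79a, at most 0.793 CPM), myeloid cells by 1 of 6 (Cd68, at most 6.87 CPM), CD4 T cells by 2 of 3 (8.19 to 13.9 CPM untreated, 15.4 to 36.3 CPM with the drug), and erythroid cells and platelets by 3 of 6 (3.03 to 12.6 CPM). NK cells were represented by 1 of 3 markers, Klrd1, which CD8+ T cells also make, at 25.7 to 40.3 CPM untreated and 90.3 to 179 CPM with the drug, and the part of these markers in the results was not tested. In these bulk samples, fewer cells of a type and less RNA per cell cannot be told apart.

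In the share of an annotation class, 3 halofuginone-treated libraries stood apart from their groups. They were Rosa26 library 2, ATF4 KO library 3 and CEBPG KO library 3. Their counts held a smaller share of 829 genes of the annotation class TEC (mostly unspliced transcripts of unproven status), at 0.0542%, 0.0735% and 0.151%, while the other treated libraries held 0.189% to 0.302%. In the untreated groups this share was 0.10% to 0.133% in Rosa26, 0.194% to 0.250% in ATF4 KO and 0.199% to 0.213% in CEBPG KO cells. Malat1, a nuclear noncoding RNA, moved alongside, at 858 to 1168 CPM in untreated Rosa26, 2026 to 2606 CPM in untreated ATF4 KO and 2048 to 2364 CPM in untreated CEBPG KO cells. The summed level of the 30 members was also the highest of its group in each of the 3 libraries, at 1582, 1393 and 1319 CPM. A chi-square per degree of freedom between the counts of 2 libraries differed on CEBPG KO cells. It was 11.2 for treated CEBPG KO libraries 1 and 3, 18.7 for 2 and 3 and 27.1 for 1 and 2. Library 3 was thus not the most distant there. In treated Rosa26 cells it was 20.4 and 16.8 with library 2 and 7.4 without it. In treated ATF4 KO cells it was 31.6 and 39 with library 3 and 6.02 without it. Counts of changed members are given with and without the 3 libraries named above.

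The sequences just upstream of 4 members are shown first, because these genes stand for the responses described below. Hmgcs1 is the enzyme with the highest level per length of annotated exon, and Idi1 had the largest fall in Rosa26 cells. Insig1 had the largest called difference between genotypes in its drug response, and Insig2 rose. Each is the 250 bases before a RefSeq transcript start on GRCm38.p6, 5′ to 3′ on the gene's strand. Capitals mark matches on either strand to an SREBP element (TCACNCCAC), an NF-Y box (CCAAT, reading ATTGG on the other strand), an Sp1 box (GGGCGG, or CCGCCC), a composite of ATF4 and C/EBP (TGATGNAA, reading the other way on the opposite strand) and an E-box (CACGTG), and no 2 matches overlap in these 4 sequences.
Hmgcs1 (chr13:119690101-119690350, + strand): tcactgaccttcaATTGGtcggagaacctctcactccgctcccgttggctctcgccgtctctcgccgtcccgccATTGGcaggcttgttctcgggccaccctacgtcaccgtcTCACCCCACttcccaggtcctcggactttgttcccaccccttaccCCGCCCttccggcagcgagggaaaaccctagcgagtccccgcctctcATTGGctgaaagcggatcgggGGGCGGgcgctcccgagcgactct
Idi1 (chr13:8885356-8885605, + strand): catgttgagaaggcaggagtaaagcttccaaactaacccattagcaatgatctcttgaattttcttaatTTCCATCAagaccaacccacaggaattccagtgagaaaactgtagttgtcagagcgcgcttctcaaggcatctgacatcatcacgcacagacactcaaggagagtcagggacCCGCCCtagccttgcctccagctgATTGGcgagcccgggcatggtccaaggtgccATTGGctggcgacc
Insig1 (chr5:28071162-28071411, + strand): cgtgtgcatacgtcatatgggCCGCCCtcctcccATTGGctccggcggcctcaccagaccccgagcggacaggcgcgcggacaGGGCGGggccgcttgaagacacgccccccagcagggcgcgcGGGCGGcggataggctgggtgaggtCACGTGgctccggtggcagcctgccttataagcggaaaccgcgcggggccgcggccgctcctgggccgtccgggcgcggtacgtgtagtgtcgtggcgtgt
Insig2, the most upstream of its 3 starts (chr1:121332590-121332839, - strand): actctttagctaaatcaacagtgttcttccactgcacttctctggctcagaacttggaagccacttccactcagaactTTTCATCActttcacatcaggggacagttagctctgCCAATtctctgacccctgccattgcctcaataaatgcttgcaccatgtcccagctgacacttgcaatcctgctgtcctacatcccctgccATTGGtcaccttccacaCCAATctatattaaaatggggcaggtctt

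The Hmgcs1 stretch holds 1 SREBP element, 137 bases before the start, among 3 NF-Y and 2 Sp1 boxes. The Idi1 stretch holds a composite 181 bases before the start, an Sp1 box at 69 bases and NF-Y boxes at 45 and 14 bases. In Insig1 there are 3 Sp1 boxes, 1 NF-Y box and 1 E-box and no SREBP element of these letters. Insig2 carries a composite 172 bases before the start and 3 NF-Y boxes.

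RefSeq windows (250 bases before and 50 after a start) were matched for 25 members, in 33 windows. Fdps, Fdft1, Sqle, Stard4 and Npc1 were not matched. The NF-Y box lay in 66.7% of the members' windows and in 37.4% of all 32851 windows of that length, and the Sp1 box in 78.8% and 35.7%. The E-box lay in 18.2% and 7.15%, the composite in 9.09% and 3.97%, and the SREBP element in 3.03% (Hmgcs1 alone) and 1.24%. These are matches of letters, which show neither binding nor its absence.

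Per base of annotated exon, with the exons of all isoforms joined, the members spanned a wide range in untreated Rosa26 cells. This length can exceed that of the main transcript, so the order of the members depends in part on annotation. On the scale of CPM per kilobase of exon (RPKM), Tmem97, an endoplasmic reticulum protein that binds NPC1, was highest at 61.7. Hmgcs1, the synthase of HMG-CoA, and Srebf2, which encodes the SREBP that chiefly drives cholesterol genes, followed at 49.3 each. Cyp51, the lanosterol demethylase, stood at 40.7 RPKM and Npc2, which hands cholesterol to NPC1 in lysosomes, at 32.7 RPKM. At the other end, Insig2 had 3.45 RPKM, Mbtps2 2.72, Tm7sf2 (a sterol reductase) 1.72 and Fdps (farnesyl diphosphate synthase) 0.916. Fdps rests on 4 to 68 counts in a library, and 26.7% of its exon bases overlap Gm43738 on the same strand, so its values are uncertain. Members that share 20.8% or more of their 50-base words with other genes were Acat2 (39.1%), Mbtps2 (28.9%), Fdft1 (26.5%), Fdps (26.2%), Idi1 (25.3%) and Tmem97 (20.8%). Of these, Acat2 shared words with Acat3 and Tcp1, and Mbtps2 with Yy2. Their reads could be split between genes, depending on how the authors counted.

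**Figure D1:**
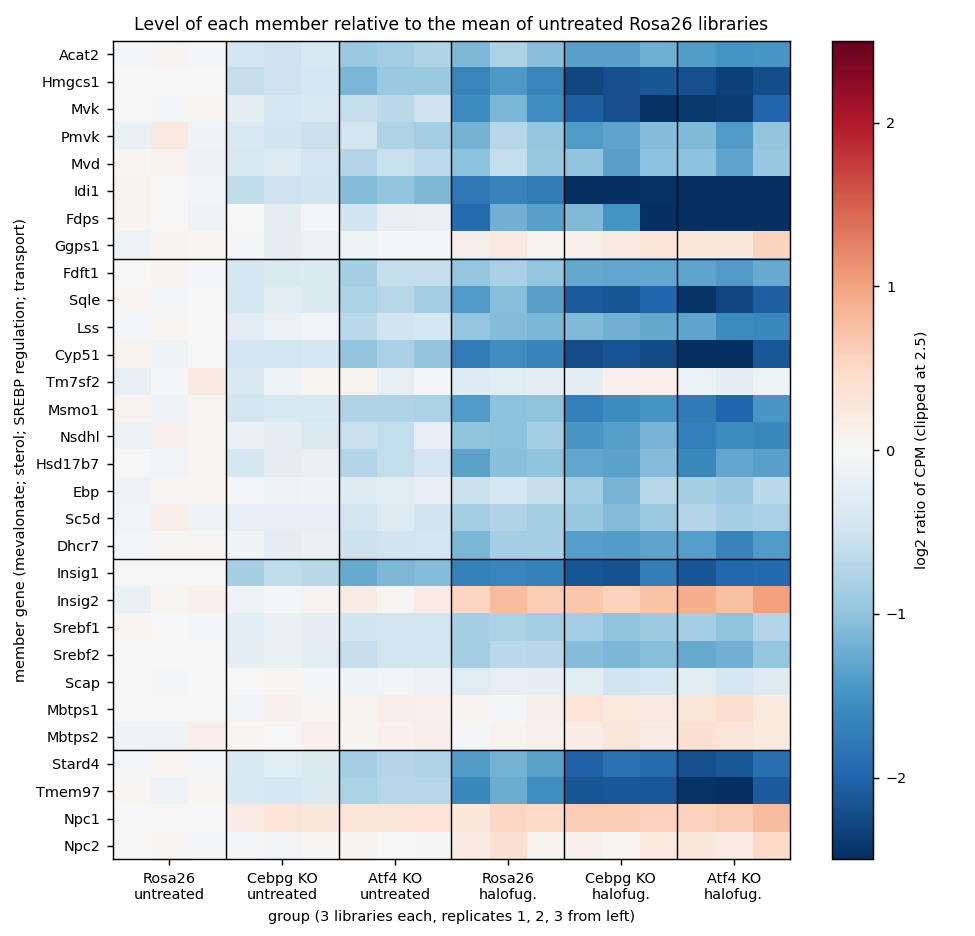
Level of each of the 30 members in each of the 18 libraries as the log2 ratio of its CPM to the mean of untreated Rosa26 cells; rows are genes in the order of the pathway, columns are libraries by group, blue is lower, red is higher, and the colour is clipped at 2.5. Most enzyme rows turn bluer from untreated Rosa26 on the left to the treated knockouts on the right, whereas Insig2 and Npc1 turn redder with the drug.

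Halofuginone lowered most of the pathway in Rosa26 cells. Of the 30 members, 23 fell and 3 rose at an adjusted p under 0.05, and 12 fell by at least 2-fold. Over all genes, 24.1% fell, 23.6% rose, and 3.89% fell by at least 2-fold. The members' median log2 fold change was -0.94, beside 0.02 for all genes. Their summed level went from 2510 ± 6.03 CPM (n = 3) to 1489 ± 84.8 CPM (n = 3). The libraries of each called member did not overlap between the groups, which also held for 96.8% of all called genes. In the drug comparisons of the knockouts and the knockout comparisons with Rosa26 cells it held for 88.8% to 99.9% of called genes. Of all genes, called or not, 33.1% to 60.7% had no overlap in these comparisons. Statements below that libraries kept apart therefore add little to a call.

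Among the mevalonate and isoprenoid enzymes 7 of 8 fell, by a median of -1.20 on the log2 scale over the 8. Hmgcs1, which commits acetyl-CoA to mevalonate, held 225, 227.5 and 226 CPM in the untreated libraries and 71.7, 84.1 and 72.2 CPM in the treated ones. Every treated library was far under every untreated one, and the change was -1.57 ± 0.072 (adjusted p = 8.63e-13, edgeR). Idi1, the isomerase of isopentenyl diphosphate, went from 83.2, 79.1 and 75.6 CPM to 22.9, 25.0 and 23.5 CPM, the largest fall of any member here (-1.74 ± 0.099, adjusted p = 2.16e-11, edgeR). Mvk, mevalonate kinase, went from 28.0, 26.9 and 29.1 CPM to 9.44, 12.6 and 9.53 CPM. Its libraries also kept apart, with library 2 the highest of the treated ones (-1.41 ± 0.12). Acat2, which makes acetoacetyl-CoA, fell by 0.98, Pmvk, which phosphorylates mevalonate phosphate, fell by 0.94, and Mvd, the decarboxylase that follows, fell by 0.85. Fdps, with few counts, held 4.02, 3.89 and 3.65 CPM untreated and 1.02, 1.68 and 1.49 CPM treated (-1.47 ± 0.33). Ggps1, which makes geranylgeranyl diphosphate for protein prenylation, is the enzyme of this group that did not pass the test, with 42.9 ± 3.27 CPM untreated and 47.5 ± 2.72 CPM treated (0.15 ± 0.086, 95% interval -0.03 to 0.33).

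Of the squalene and sterol ring enzymes 10 of 11 fell, with a median of -0.95 over the 11. Sqle, squalene epoxidase, held 123, 117 and 119 CPM untreated and 44.8, 57.1 and 46.7 CPM treated. Library 2 was the highest of the treated ones and still under every untreated library (-1.27 ± 0.092, adjusted p = 7.28e-10, edgeR). Cyp51 went from 191, 167 and 181 CPM to 53.1, 61.3 and 56.35 CPM, a fall to 31.7% (-1.66 ± 0.095, adjusted p = 2.44e-11, edgeR). The enzymes around them moved less: Msmo1, which oxidises sterol methyl groups, fell by 1.14 on the log2 scale, Hsd17b7, a sterol ketoreductase, by 1.13, and Lss, which closes the lanosterol rings, by 1.06. Nsdhl, a sterol dehydrogenase, fell by 0.95, Dhcr7, a reductase at the end of the pathway, by 0.94, and Fdft1, squalene synthase, by 0.91. Sc5d, a sterol desaturase, fell by 0.82 and Ebp, a sterol isomerase, by 0.52. Tm7sf2 did not pass, at 7.59 ± 1.14 CPM untreated and 6.25 ± 0.213 CPM treated (-0.28 ± 0.15, 95% interval -0.60 to 0.03).

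The regulators split. Insig1, itself a target of SREBP, held 95.4, 96.6 and 96.9 CPM untreated and 30.02, 30.6 and 29.95 CPM treated, with almost no spread in either group (-1.67 ± 0.092, adjusted p = 1.36e-11, edgeR). Its relative Insig2 went the other way, from 10.75, 12.4 and 12.85 CPM to 17.3, 20.8 and 18.55 CPM, a rise in every treated library over every untreated one (0.65 ± 0.10, adjusted p = 2.78e-05, edgeR). Srebf2 went from 352, 352.5 and 358.5 CPM to 195, 223 and 218 CPM (-0.74 ± 0.068, adjusted p = 2.54e-08, edgeR). Srebf1, whose product chiefly drives fatty acid genes, went from 154, 148 and 144 CPM to 83.1, 85.9 and 82.6 CPM (-0.83 ± 0.063, adjusted p = 1.68e-09, edgeR). For both, all treated libraries were lower than all untreated ones. Scap, the escort of the SREBPs, fell slightly (-0.25 ± 0.059). The proteases Mbtps1 and Mbtps2 did not pass, at 0.07 ± 0.060 (95% interval -0.06 to 0.19) and 0.05 ± 0.081 (95% interval -0.12 to 0.21).

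Among the sterol carriers 2 fell and 2 rose. Stard4, a soluble sterol carrier whose gene is an SREBP target, held 126, 133 and 125 CPM untreated and 48.6, 56.4 and 50.5 CPM treated (-1.31 ± 0.076, adjusted p = 3.03e-11, edgeR). Tmem97 went from 87.4, 79.1 and 88.1 CPM to 27.9, 35.95 and 29.3 CPM (-1.45 ± 0.097, adjusted p = 2.21e-10, edgeR). Both fell in every treated library. Npc1, the lysosomal exporter of cholesterol, rose from 47.0, 47.1 and 47.9 CPM to 56.5, 67.6 and 65.6 CPM (0.42 ± 0.071, adjusted p = 6.93e-05, edgeR), and Npc2 from 177, 184 and 172.5 CPM to 207, 230.3 and 188.5 CPM (0.23 ± 0.077, adjusted p = 0.0179, edgeR). Npc2 lost its call without treated library 2 or without untreated library 3. Leaving out the 3 libraries that stood apart, 23 members fell and 4 rose, beside 27.5% and 30.1% of all genes. Treated library 2 had a TEC share below that of every untreated Rosa26 library. Its summed level of the members was the highest of its group, at 1582 CPM beside 1416 and 1469 CPM. Hmgcs1 stood there at 84.1 CPM and Insig1 at 30.6 CPM. The part of the TEC share in the fall was not tested.

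**Figure D2:**
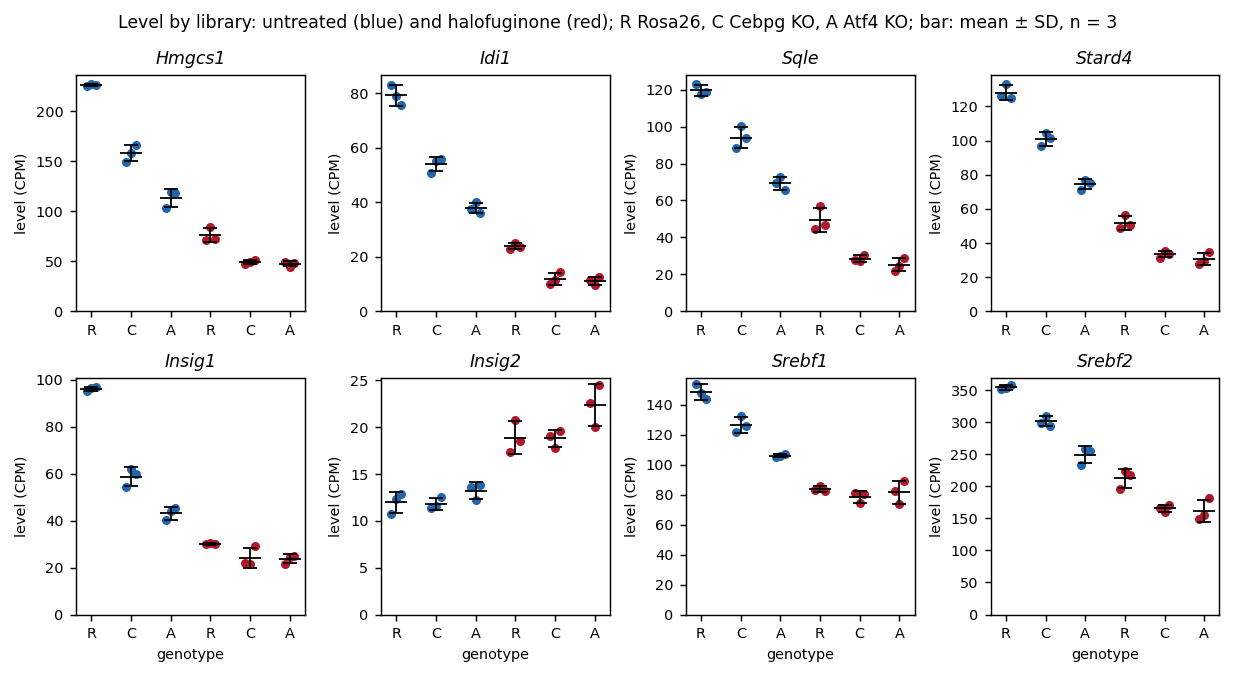
Level in CPM of 8 members in each library; blue points are untreated and red points are treated with halofuginone, R, C and A are Rosa26, CEBPG KO and ATF4 KO, and bars are the mean ± SD of 3 libraries. Levels of Hmgcs1, Idi1, Sqle, Stard4, Insig1 and Srebf2 step down from untreated Rosa26 through CEBPG KO to ATF4 KO and on to the treated groups, whereas Insig2 is higher in every treated library.

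The drug lowered the pathway in both knockouts too. In ATF4 KO cells 23 of 30 members fell and 6 rose, and 9 fell by at least 2-fold. Over all genes, 26.5% fell, 23.1% rose and 6.31% fell by at least 2-fold. In CEBPG KO cells 23 fell and 4 rose, and 13 fell by at least 2-fold, beside 28.0%, 23.1% and 6.38% of all genes. The members' medians were -0.65 and -0.88, with all-gene medians of -0.04 and -0.03. In each knockout 23 members fell and 6 rose when the 3 libraries were left out, beside 29.8% and 26.7% of all genes in ATF4 KO and 29.5% and 27.6% in CEBPG KO cells. The summed level went from 1769 ± 46.6 to 1299 ± 82.8 CPM in ATF4 KO cells and from 2089 ± 44.2 to 1281 ± 38.5 CPM in CEBPG KO cells (n = 3 each).

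Idi1 went from 37.6, 39.9 and 36.2 CPM to 11.6, 9.55 and 12.5 CPM in ATF4 KO cells (-1.76 ± 0.11, adjusted p = 5.64e-11, edgeR). In CEBPG KO cells it went from 50.9, 55.3 and 55.9 CPM to 10, 11.7 and 14.4 CPM (-2.18 ± 0.11, adjusted p = 1.77e-12, edgeR), the largest fall of a member there. Mvk went from 18.4, 17.5 and 19.4 to 5.22, 5.37 and 7.10 CPM in ATF4 KO cells (-1.64 ± 0.14) and from 23.8, 20.7 and 21.5 to 6.72, 6.11 and 5.07 CPM in CEBPG KO cells (-1.88 ± 0.13). All treated libraries of both genes lay below all untreated ones of the same genotype. Fdps went from 2.71, 3.35 and 3.38 to 0.246, 0.437 and 0.537 CPM in ATF4 KO cells (-2.93 ± 0.39, adjusted p = 3.45e-06, edgeR), the largest fold of any member. It rests on few counts, 4 in the lowest library. In CEBPG KO cells Fdps went from 3.85, 3.28 and 3.71 to 1.80, 1.37 and 0.417 CPM (-1.56 ± 0.34), with treated library 3 far below the other two.

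Hmgcs1 fell from 103, 119 and 119 to 49.4, 44.8 and 48.8 CPM in ATF4 KO cells (-1.25 ± 0.073) and from 149, 159 and 166 to 46.8, 49.5 and 51.5 CPM in CEBPG KO cells (-1.68 ± 0.074). Sqle fell from 69.45, 72.5 and 65.8 to 21.9, 24.5 and 28.9 CPM (-1.46 ± 0.097) and from 88.3, 100.1 and 93.8 to 27.8, 27.1 and 30.5 CPM (-1.72 ± 0.096), in the same order. Groups again kept apart, and with the drug both genes reached lower levels in the knockouts than in Rosa26 cells. Cyp51 fell from 90.4, 102 and 90.8 to 29.2, 31.2 and 41.5 CPM (-1.47 ± 0.098) and from 128, 128 and 132 to 38.5, 40.3 and 38.3 CPM (-1.73 ± 0.097). Stard4 fell from 71.2, 77.0 and 75.3 to 27.8, 29.5 and 34.8 CPM (-1.28 ± 0.079) and from 96.55, 104 and 102 to 31.5, 35.1 and 33.8 CPM (-1.59 ± 0.079). Tmem97 fell from 49.4, 51.6 and 51.6 to 15.4, 14.7 and 20.2 CPM (-1.60 ± 0.10) and from 65.2, 63.8 and 67.25 to 19.3, 19.6 and 19.6 CPM (-1.75 ± 0.10). Adjusted p-values of these 5 genes in edgeR ran from 3.20e-13 (Hmgcs1, CEBPG KO) to 1.81e-10 (Cyp51, ATF4 KO). Every treated library of Cyp51, Stard4 and Tmem97 was below every untreated library of its genotype.

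The remaining enzymes fell as well, by smaller steps. In ATF4 KO cells the log2 changes were -1.18 for Nsdhl, -0.98 for Lss, -0.98 for Dhcr7, -0.95 for Msmo1, -0.81 for Hsd17b7, -0.66 for Fdft1, -0.59 for Acat2, -0.54 for Ebp, -0.47 for Pmvk, -0.45 for Mvd and -0.37 for Sc5d. In CEBPG KO cells the log2 changes were -1.19 for Dhcr7, -1.18 for Msmo1, -1.09 for Nsdhl, -1.03 for Lss, -0.96 for Hsd17b7, -0.90 for Fdft1, -0.84 for Acat2, -0.81 for Ebp, -0.80 for Pmvk, -0.77 for Sc5d and -0.72 for Mvd. Mvd, Pmvk and Sc5d thus had the 3 smallest called falls among the enzymes in both knockouts. Tm7sf2 did not pass in either knockout, at -0.12 ± 0.15 in ATF4 KO and 0.14 ± 0.15 in CEBPG KO cells.

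Of the regulators, Srebf2 fell from 234, 259 and 255 to 148, 155 and 181 CPM in ATF4 KO cells (-0.63 ± 0.069) and from 299, 310.1 and 294.5 to 166, 160.2 and 170.0 CPM in CEBPG KO cells (-0.86 ± 0.069). Scap fell by 0.23 and by 0.41 on the log2 scale in ATF4 KO and CEBPG KO cells. Insig2 rose from 13.6, 12.2 and 13.85 to 22.6, 20.0 and 24.5 CPM in ATF4 KO cells (0.76 ± 0.10) and from 11.3, 11.6 and 12.6 to 19.0, 17.8 and 19.6 CPM in CEBPG KO cells (0.67 ± 0.10). The rise of Insig2 was thus seen in each genotype, with no overlap of treated and untreated libraries. Adjusted p-values of Insig2 in edgeR were 3.38e-06 in ATF4 KO and 1.93e-05 in CEBPG KO cells.

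The other members that rose did so by little. Npc1 rose by 0.33 in ATF4 KO and 0.35 in CEBPG KO cells. Ggps1, which had not passed in Rosa26 cells, rose by 0.42 ± 0.087 in ATF4 KO cells (adjusted p = 0.000398, edgeR) and by 0.36 ± 0.087 in CEBPG KO cells (adjusted p = 0.00179, edgeR). Mbtps1, the protease that makes the first of the SREBP cuts, rose by 0.19 and 0.25. Mbtps2, which makes the other cut inside the membrane, rose by 0.21 in ATF4 KO cells (adjusted p = 0.0352, edgeR) and had 0.15 in CEBPG KO cells, without passing. Npc2 rose by 0.30 in ATF4 KO cells and had 0.17 in CEBPG KO cells, without passing.

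**Figure D3:**
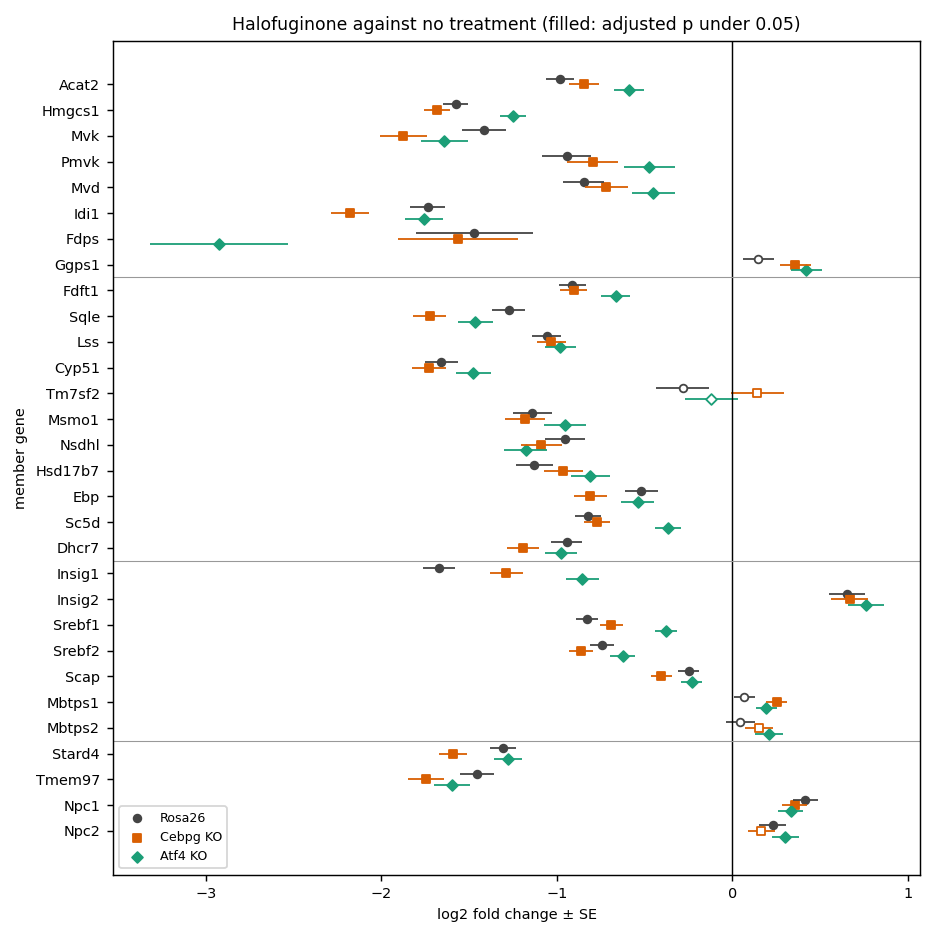
Log2 fold change ± SE of each member with halofuginone against no treatment in Rosa26 (circles), CEBPG KO (squares) and ATF4 KO cells (diamonds); filled points have an adjusted p under 0.05 and lines part the 4 roles. Points of the enzymes lie left of 0 in all genotypes except for Ggps1 and, in CEBPG KO cells, Tm7sf2, and Insig1 spreads the most between genotypes apart from Fdps.

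Whether the drug effect itself differed by genotype was tested by interaction terms. Between ATF4 KO and Rosa26 cells 3 of 30 members differed, all with a smaller fall in ATF4 KO cells, and 10 had an unadjusted p under 0.05. Over all genes 6.42% differed in either direction, and 2922 of 14695 had an unadjusted p under 0.05. Insig1 went from 40.2, 44.0 and 45.25 CPM to 21.7, 24.7 and 25.1 CPM in ATF4 KO cells (-0.85 ± 0.096), beside -1.67 in Rosa26 cells, and the interaction was 0.82 ± 0.13 (adjusted p = 0.000929, edgeR). Untreated ATF4 KO libraries already lay below all untreated Rosa26 libraries, and the treated ones ended at or under 25.1 CPM. Srebf1 went from 105, 106 and 107 CPM to 82.4, 73.65 and 89.0 CPM in ATF4 KO cells (-0.38 ± 0.063), with an interaction of 0.45 ± 0.089 (adjusted p = 0.00411, edgeR). Its treated levels overlapped between ATF4 KO and Rosa26 cells, while its untreated levels did not. Sc5d went from 57.65, 66.9 and 56.6 CPM to 33.2, 35.6 and 33.8 CPM in Rosa26 cells and from 44.0, 48.1 and 42.5 CPM to 36.3, 33.7 and 34.5 CPM in ATF4 KO cells, with an interaction of 0.45 ± 0.10 (adjusted p = 0.012, edgeR). Here too the treated levels overlapped and the untreated ones did not.

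The count of 3 moved with single libraries: it was 7 without treated Rosa26 library 2, 5 without treated ATF4 KO library 3, 5 without treated CEBPG KO library 2, 5 without treated CEBPG KO library 3 and 7 without the 3 libraries that stood apart, with Insig1, Srebf1 and Sc5d called each time. The share of all genes was 6.79% to 14.9% in these fits, against 6.42% with all libraries, and its split moved with the scaling, from 4.01% lower and 2.41% higher to 3.33% and 4.80% with RLE factors. Acat2 (0.39 ± 0.12, adjusted p = 0.0531, edgeR) and Hmgcs1 (0.32 ± 0.10, adjusted p = 0.0641, edgeR) lay just outside the threshold. For other leading members the interval of the difference spanned 0: Idi1 had -0.02 (95% interval -0.32 to 0.28), Stard4 0.03 (95% interval -0.20 to 0.25), Srebf2 0.12 (95% interval -0.09 to 0.32) and Sqle -0.19 (95% interval -0.47 to 0.09). Fdps had -1.46 with a wide interval (-2.54 to -0.37) and an adjusted p of 0.109 in edgeR. An interaction uses the same untreated libraries as the comparison of untreated knockouts below, so the values stand side by side and are not separate support.

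Between CEBPG KO and Rosa26 cells the interaction passed for none of the 30 members in edgeR, while 8 had an unadjusted p under 0.05 and DESeq2 called 2 (Sqle and Insig1). Over all genes 2.47% differed in edgeR and 4.41% in DESeq2, and 2001 of 14695 had an unadjusted p under 0.05 in edgeR. Sqle had -0.45 ± 0.13 (adjusted p = 0.082, edgeR), Idi1 -0.44 ± 0.14 (adjusted p = 0.135, edgeR) and Mvk -0.46 ± 0.18 (adjusted p = 0.241, edgeR), which are larger falls in CEBPG KO cells. Insig1 went from 54.4, 62.2 and 59.8 CPM to 21.97, 21.3 and 29.1 CPM (-1.29 ± 0.095), with treated library 3 the highest of its group and an interaction of 0.39 ± 0.13 (adjusted p = 0.154, edgeR). Srebf1 went from 122, 132 and 126 CPM to 81.4, 74.2 and 80.15 CPM (-0.69 ± 0.063), and Sc5d from 52.4, 52.0 and 52.3 CPM to 31.5, 28.6 and 31.8 CPM (-0.77 ± 0.075). Their interactions were 0.14 (95% interval -0.05 to 0.32) and 0.05 (95% interval -0.17 to 0.27). Without the 3 libraries that stood apart 2 members passed (Idi1 and Sqle), beside 7.15% of all genes.

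Set directly against each other, the drug effects in the knockouts differed for none of the 30 members in edgeR, with 10 at an unadjusted p under 0.05 and 1 called by DESeq2 (Hmgcs1). Over all genes 0.0136% differed in edgeR and 0.361% in DESeq2, and 990 of 14695 had an unadjusted p under 0.05 in edgeR. Hmgcs1 had -0.43 ± 0.10 (adjusted p = 0.262, edgeR) as CEBPG KO minus ATF4 KO, and Sc5d had -0.40 ± 0.11 (adjusted p = 0.352, edgeR). Without the 3 libraries 2 members passed (Hmgcs1 and Insig1), beside 0.429% of all genes. For Insig1 the difference was -0.43 with all 18 libraries (95% interval -0.71 to -0.15).

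The pathway was already lower in ATF4 KO cells without the drug. Of the 30 members 21 fell against Rosa26 cells and 1 rose, while 14.3% of all genes fell and 11.7% rose. The median was -0.52 for the members and 0.02 for all genes. Insig1 held 95.4, 96.6 and 96.9 CPM in Rosa26 and 40.2, 44.0 and 45.25 CPM in ATF4 KO cells, so that every knockout library lay far under every control library (-1.16 ± 0.090, adjusted p = 7.04e-08, edgeR). Idi1 held 37.6, 39.9 and 36.2 CPM in ATF4 KO cells (-1.06 ± 0.096, adjusted p = 3.06e-07, edgeR) and Hmgcs1 103, 119 and 119 CPM (-0.996 ± 0.070, adjusted p = 3.43e-08, edgeR). Both lay under all Rosa26 libraries. By role 6 of 8 mevalonate and isoprenoid enzymes, 10 of 11 sterol enzymes, 3 of 7 regulators (Insig1, Srebf1 and Srebf2) and 2 of 4 carriers (Stard4 and Tmem97) fell.

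Among the sterol enzymes the falls ran from -0.93 for Cyp51 to -0.27 for Ebp. Srebf2, at 234, 259 and 255 CPM, fell by 0.51, and Srebf1, at 105, 106 and 107 CPM, fell by 0.49. Npc1 was the single member that rose, to 59.1, 59.4 and 59.95 CPM (0.33 ± 0.072, adjusted p = 0.0022, edgeR). The 8 members that did not pass were Fdps, Ggps1, Tm7sf2, Insig2, Scap, Mbtps1, Mbtps2 and Npc2, and Insig2 had 0.14 (95% interval -0.08 to 0.36). The TEC share was 0.194% to 0.250% in these knockout libraries against 0.10% to 0.133% in Rosa26, and its part in the difference was not tested. Without the 3 treated libraries that stood apart 21 fell and 2 rose, beside 20.8% and 21.1% of all genes.

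CEBPG KO cells showed a smaller shift without the drug. Of the 30 members 12 fell and 1 rose against Rosa26 cells, beside 2.29% and 2.71% of all genes, with a median of -0.24 for the members and 0.01 for all genes. The background depends on the method here: 7.72% of all genes fell and 2.74% rose with RLE factors, where 16 members fell and 1 rose, and 10.3% and 3.40% in DESeq2, where 17 fell and 1 rose. None fell by 2-fold. Insig1 held 54.4, 62.2 and 59.8 CPM (-0.71 ± 0.088, adjusted p = 0.000345, edgeR), Idi1 50.9, 55.3 and 55.9 CPM (-0.55 ± 0.094, adjusted p = 0.00295, edgeR) and Hmgcs1 149, 159 and 166 CPM (-0.52 ± 0.069, adjusted p = 0.000475, edgeR), all below every Rosa26 library. Acat2, Pmvk, Fdft1, Sqle, Cyp51, Msmo1, Srebf1, Stard4 and Tmem97 also fell, by 0.23 (Srebf1) to 0.48 (Pmvk) on the log2 scale. Npc1 rose (0.26 ± 0.072, adjusted p = 0.0386, edgeR). Srebf2, at 299, 310.1 and 294.5 CPM, was just outside the threshold (-0.23 ± 0.068, adjusted p = 0.0508, edgeR). The count of 13 fell to 6 without CEBPG KO library 1, and to 7 without any other of the untreated CEBPG KO or Rosa26 libraries. Acat2, Hmgcs1, Idi1, Fdft1, Cyp51 and Insig1 were called in each of those fits, in which 1.38% to 2.21% of all genes passed, against 735 of 14695 genes with all libraries. It was 18 without the 3 libraries that stood apart and 20 in a fit of these 2 groups alone, but the share of all genes also rose, to 26.7% and 28.0%. The TEC share, at 0.199% to 0.213%, was again above that of Rosa26 cells, and its part was not tested.

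CEBPG KO cells thus lay between the other genotypes for many members, and the difference between the knockouts without the drug was tested after these levels had been seen. Of the 30 members 13 were higher in CEBPG KO than in ATF4 KO cells and none was lower in edgeR, at an unadjusted p under 0.05 or in DESeq2, beside 2.01% of all genes that were higher. The median was 0.26 for the members. The 3 largest differences were those of Idi1 (0.51 ± 0.096, adjusted p = 0.00578, edgeR), Hmgcs1 (0.48 ± 0.070, adjusted p = 0.000845, edgeR) and Cyp51 (0.45 ± 0.092, adjusted p = 0.00971, edgeR), with Insig1 next (0.45 ± 0.091, adjusted p = 0.00971, edgeR). For each of these 4 genes every CEBPG KO library was higher than every ATF4 KO library, but how often this held over all genes was not counted here. Srebf1 (0.26) and Srebf2 (0.27) passed as well. Leaving out 1 library of the 2 groups left 4 to 9 of the 13 (4 without ATF4 KO library 1, 6 without library 2 or 3, and 9, 5 and 5 without CEBPG KO libraries 1, 2 and 3). Hmgcs1, Idi1 and Stard4 were called in each of these fits, in which 0.544% to 1.14% of all genes were higher. It was 16 when the 3 libraries that stood apart were left out, beside 6.70% of all genes. The TEC shares of these 2 groups overlapped.

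**Figure D4:**
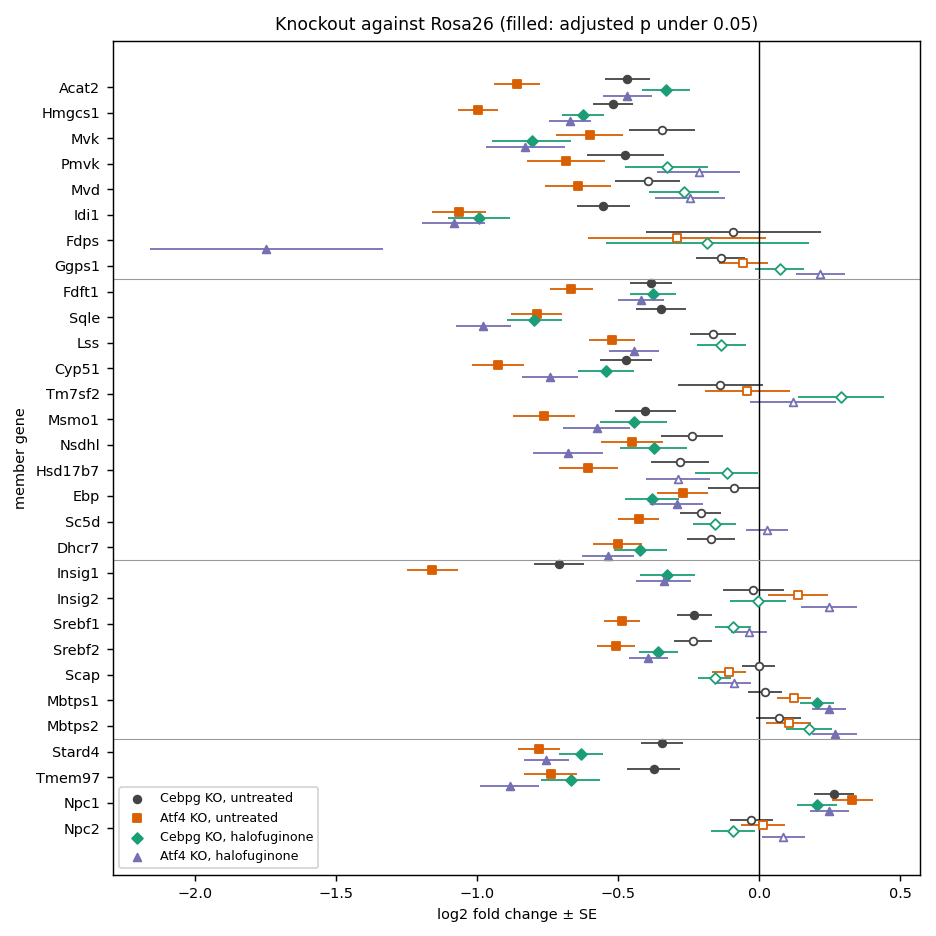
Log2 fold change ± SE of each member in a knockout against Rosa26, for CEBPG KO untreated (circles), ATF4 KO untreated (squares), CEBPG KO with halofuginone (diamonds) and ATF4 KO with halofuginone (triangles); filled points have an adjusted p under 0.05. Most enzymes lie left of 0, with untreated ATF4 KO left of untreated CEBPG KO, and Npc1 lies right of 0 in all 4 comparisons.

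With the drug, both knockouts still held less of the pathway than Rosa26 cells. In ATF4 KO cells 17 members were lower and 3 higher, beside 16.3% and 11.8% of all genes, with medians of -0.37 for the members and 0.00 for all genes. In CEBPG KO cells 15 were lower and 2 higher, beside 13.1% and 5.74% of all genes, with medians of -0.33 and -0.02. Idi1 stood at 22.9, 25.0 and 23.5 CPM in treated Rosa26, 11.6, 9.55 and 12.5 CPM in treated ATF4 KO and 10, 11.7 and 14.4 CPM in treated CEBPG KO cells. Every knockout library was below every Rosa26 library, with differences of -1.08 ± 0.11 (adjusted p = 4.30e-07, edgeR) and -0.99 ± 0.11 (adjusted p = 3.73e-06, edgeR). Sqle differed by -0.98 ± 0.098 (adjusted p = 3.40e-07, edgeR) and -0.80 ± 0.097 (adjusted p = 1.09e-05, edgeR), in that order. Fdps differed by -1.75 ± 0.41 in ATF4 KO cells (adjusted p = 0.00312, edgeR), on few counts, and did not pass in CEBPG KO cells (-0.18, 95% interval -0.94 to 0.57). Mvk differed by -0.83 ± 0.14 and -0.81 ± 0.14, with adjusted p-values of 0.000135 and 0.000405 in edgeR.

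Insig1, which had the largest difference of any member between untreated ATF4 KO and Rosa26 cells, differed from treated Rosa26 cells by -0.34 in treated ATF4 KO and by -0.33 in treated CEBPG KO cells (adjusted p = 0.0118 and 0.0229, edgeR). Srebf1 did not pass, at -0.04 (95% interval -0.17 to 0.10) and -0.09 (95% interval -0.23 to 0.04), whereas Srebf2 passed at -0.39 and -0.36. The members that were higher were Npc1 (0.25 and 0.20), Mbtps1 (0.25 and 0.20) and, in ATF4 KO cells, Mbtps2 (0.27). In fits of the 2 groups alone the counts were 15 for ATF4 KO, where Msmo1, Ebp, Mbtps1, Mbtps2 and Npc1 lost the call, and 10 for CEBPG KO, where Acat2, Msmo1, Nsdhl, Ebp, Insig1, Mbtps1 and Npc1 lost it. The share of all genes called in either direction also fell in these fits, from 28.1% to 16.1% and from 18.9% to 13.1%. Without the 3 libraries that stood apart the counts were 20 and 17, beside 34.0% and 23.2% of all genes.

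Between the treated knockouts none of the 30 members differed in edgeR, with 6 at an unadjusted p under 0.05 and 1 called by DESeq2 (Lss). Over all genes 1.00% differed in either direction in edgeR and 3.41% in DESeq2, and 1829 of 14695 had an unadjusted p under 0.05 in edgeR. The largest differences, CEBPG KO against ATF4 KO, were 1.56 ± 0.42 for Fdps (adjusted p = 0.089, edgeR) and 0.31 ± 0.088 for Lss (adjusted p = 0.105, edgeR). For Insig1 it was 0.01 (95% interval -0.19 to 0.22), for Hmgcs1 0.05 (95% interval -0.11 to 0.20), for Srebf2 0.04 (95% interval -0.11 to 0.18) and for Idi1 0.09 (95% interval -0.16 to 0.34). Without the 3 libraries that stood apart 3 members passed (Fdps, Cyp51 and Tmem97), beside 4.91% of all genes.

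**Figure D5:**
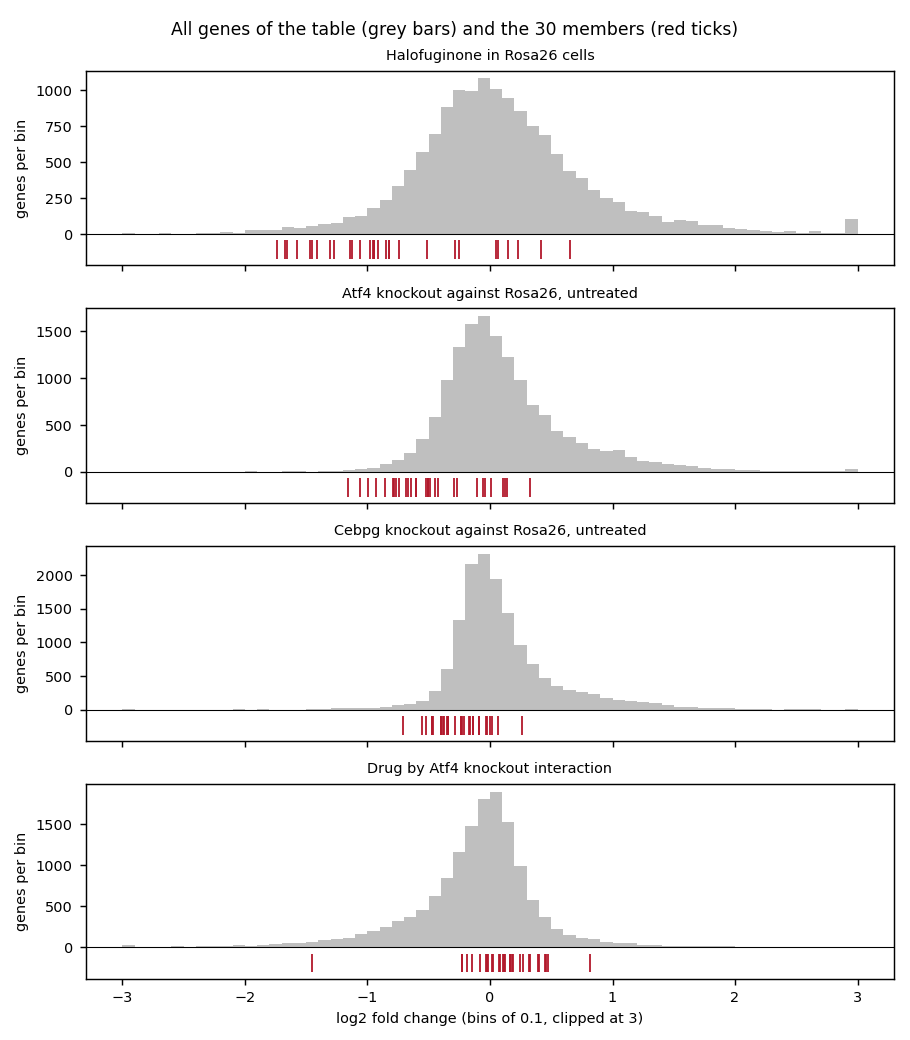
Log2 fold changes of all 14695 genes (grey bars, in bins of 0.1, clipped at 3) with those of the 30 members as red ticks, for 4 comparisons. The ticks lie mostly left of the centre for halofuginone in Rosa26 cells (median -0.94) and for the untreated knockouts (medians -0.52 and -0.24), and close to it for the interaction (median 0.12).

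Genes around the pathway were read from 6 further lists. These lists were chosen with earlier results of these data known, so counts beside the shares of all genes are description and not a test. Over all genes, 24.1% fell and 23.6% rose with the drug in Rosa26 cells. In ATF4 KO cells 26.5% fell and 23.1% rose, and in CEBPG KO cells 28.0% and 23.1%. Without the drug, 14.3% of all genes fell and 11.7% rose in ATF4 KO against Rosa26 cells, and 2.29% and 2.71% in CEBPG KO cells. These shares stand as the background of each list. An unadjusted p under 0.05 was held by 5557 of 14695 genes for untreated ATF4 KO and by 3481 for untreated CEBPG KO cells. Of 9 further genes listed around sterol synthesis, not all of them specific to it, 8 were measured. With the drug 7 fell in Rosa26, 7 in ATF4 KO and 8 in CEBPG KO cells. Medians were -0.47, -0.55 and -0.71 in Rosa26, ATF4 KO and CEBPG KO cells. The lowest in Rosa26 cells were Lbr, a sterol reductase of the nuclear membrane (-0.73 ± 0.068), and Acat1, the mitochondrial thiolase (-0.67 ± 0.13). In ATF4 KO cells they were Acat1 (-0.86 ± 0.13) and Cyb5r3, a reductase that supplies electrons (-0.78 ± 0.099), and in CEBPG KO cells Cyb5r3 (-0.997 ± 0.099) and Acat1 (-0.95 ± 0.13). Without the drug 4 fell and 1 rose in ATF4 KO cells. In CEBPG KO cells none of the 8 passed in edgeR, with 1 at an unadjusted p under 0.05 and 1 called by DESeq2 (Lbr).

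The isoprenoid branches, which use the diphosphates for prenylation, dolichol and ubiquinone, had counts at or below the shares of all genes in Rosa26 and ATF4 KO cells, so nothing is read from those counts. Of 16 genes 3 fell and 2 rose in Rosa26, 4 fell and 3 rose in ATF4 KO, and 8 fell and 3 rose in CEBPG KO cells with the drug. Medians were -0.08, -0.12 and -0.14 in Rosa26, ATF4 KO and CEBPG KO cells. Pdss1, of ubiquinone synthesis, was the lowest in each (-0.74 ± 0.12, -1.15 ± 0.12 and -1.10 ± 0.12). Next was Nus1, of dolichol synthesis, in Rosa26 cells (-0.41 ± 0.071), and Zmpste24, a protease of prenylated proteins, in ATF4 KO (-0.56 ± 0.078) and CEBPG KO cells (-0.64 ± 0.078). Srd5a3, a reductase of dolichol synthesis, was the highest in each (0.46 ± 0.074, 0.49 ± 0.074 and 0.40 ± 0.075), followed by Rabggta, a subunit of Rab prenyltransferase (0.30 ± 0.085, 0.33 ± 0.085 and 0.38 ± 0.085). In untreated knockouts 1 of the 16, Nus1, fell in each, and nothing is read from this count.

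The counts of regulators of SREBP and sterol enzyme turnover lay near the shares of all genes in Rosa26 and CEBPG KO cells, and nothing is read from them. Of 17 genes 4 fell and 6 rose in Rosa26, 2 fell and 9 rose in ATF4 KO, and 3 fell and 5 rose in CEBPG KO cells with the drug. Medians were 0.07, 0.24 and 0.05 in Rosa26, ATF4 KO and CEBPG KO cells. The chaperone gene Hsp90b1 and Paqr3, which tethers SCAP to the Golgi, were the lowest in each genotype, with Hsp90b1 at -0.70 ± 0.085, -0.67 ± 0.085 and -0.90 ± 0.085 and Paqr3 at -0.66 ± 0.21, -0.78 ± 0.22 and -0.74 ± 0.21 in Rosa26, ATF4 KO and CEBPG KO cells. The highest were Ubxn4, of endoplasmic reticulum degradation (0.59 ± 0.076, 0.72 ± 0.077 and 0.58 ± 0.077), and Spring1, which SREBP signalling needs (0.50 ± 0.11, 0.69 ± 0.11 and 0.87 ± 0.11). Untreated, 3 fell and 1 rose in ATF4 KO cells, near the shares of all genes, and 1 fell in CEBPG KO cells. Nothing is read from these untreated counts either.

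Most genes of fatty acid synthesis, which SREBP-1 chiefly drives, fell too. Of 16 genes 13 were measured, and 9 fell and 1 rose in Rosa26, 8 fell and 3 rose in ATF4 KO and 8 fell and 2 rose in CEBPG KO cells with the drug. Medians were -0.72, -0.62 and -0.67 in Rosa26, ATF4 KO and CEBPG KO cells. Fads2, a fatty acid desaturase, held 32.0 ± 1.93 CPM untreated and 5.31 ± 0.487 CPM treated in Rosa26 cells (-2.59 ± 0.12), and fell by 2.96 in ATF4 KO and 3.18 in CEBPG KO cells. Scd1, which makes monounsaturated fatty acids, fell from 8.29, 8.43 and 8.87 to 0.726, 1.24 and 1.18 CPM in Rosa26 cells (-3.03 ± 0.30), by 1.89 in CEBPG KO cells and by 0.80 in ATF4 KO cells, from 2.34, 1.96 and 1.99 to 1.35, 1.37 and 0.895 CPM (adjusted p = 0.0404, edgeR). Fasn, the fatty acid synthase, was the other lowest gene in ATF4 KO cells (-1.04 ± 0.062). Those that rose included Elovl5, an elongase (0.28 ± 0.081 in Rosa26 and 0.29 ± 0.081 in CEBPG KO cells), Acss2, an acetyl-CoA synthetase (0.73 ± 0.13 in ATF4 KO and 0.68 ± 0.14 in CEBPG KO cells), and Scd2, a relative of Scd1, in ATF4 KO cells (0.75 ± 0.071). Scd2 held 392, 404 and 405 CPM untreated and 225, 266 and 242.5 CPM treated in Rosa26 cells, and 227, 232 and 233 CPM and 374, 365 and 425 CPM in ATF4 KO cells. It thus fell in Rosa26 and rose in ATF4 KO cells, and the interaction was 1.46 ± 0.10 (adjusted p = 1.10e-07, edgeR). Without the drug 10 fell and 1 rose in ATF4 KO cells and 5 fell in CEBPG KO cells.

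Most measured genes of a list of LXR receptors, LXR targets and sterol export rose. The list does not cover every LXR target, so nothing is read from it about LXR targets at large. Of 10 genes 9 were measured, and 7 rose and 1 fell in Rosa26, 7 rose and 1 fell in ATF4 KO and 8 rose and 1 fell in CEBPG KO cells with the drug. Medians were 0.68, 1.14 and 0.94 in Rosa26, ATF4 KO and CEBPG KO cells. Abca1, a cholesterol exporter, held 0.6005, 1.555 and 1.235 CPM untreated and 3.58, 4.72 and 5.73 CPM treated in Rosa26 cells (2.03 ± 0.29). In ATF4 KO cells it went from 1.54, 0.7503 and 1.19 to 12.4, 13.7 and 16.4 CPM (3.61 ± 0.28), and in CEBPG KO cells from 1.30, 1.15 and 0.608 to 9.56, 8.85 and 9.79 CPM (3.17 ± 0.29). Treated libraries were above untreated ones in each genotype, and those of ATF4 KO cells were the highest. The interaction for ATF4 KO was 1.58 ± 0.42 (adjusted p = 0.0275, edgeR). Next came Abcg1, another exporter, in Rosa26 cells (1.17 ± 0.091), Mylip, which marks lipoprotein receptors for degradation, in ATF4 KO cells (1.80 ± 0.12), and Nr1h3, an LXR receptor gene, in CEBPG KO cells (2.18 ± 0.61, at 1.11 ± 0.449 CPM with the drug). Lpcat3, a phospholipid acyltransferase, was the one that fell (-0.53 ± 0.092, -0.36 ± 0.094 and -0.42 ± 0.093). Without the drug 2 rose in ATF4 KO cells (Abcg1 and Arl4c), a count from which nothing is read. In untreated CEBPG KO cells none of the 9 passed in edgeR, with 1 at an unadjusted p under 0.05 and 0 called by DESeq2.

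Of 18 genes of sterol esterification, oxidation and transfer 15 were measured, and 4 fell and 6 rose in Rosa26, 3 fell and 7 rose in ATF4 KO and 3 fell and 5 rose in CEBPG KO cells with the drug. The falls lay near the shares of all genes. Medians were 0.15, 0.21 and 0.09 in Rosa26, ATF4 KO and CEBPG KO cells. Soat2, which esterifies cholesterol, went from 18.01, 19.9 and 23.0 to 62.4, 58.8 and 58.65 CPM in Rosa26 cells (1.56 ± 0.096) and from 17.75, 17.5 and 17.9 to 23.8, 30.02 and 23.6 CPM in ATF4 KO cells (0.54 ± 0.10). It went from 21.75, 22.8 and 21.0 to 26.1, 22.8 and 24.0 CPM in CEBPG KO cells, where it did not pass (0.15 ± 0.099). The treated Rosa26 libraries were the highest, and the interactions were -1.02 ± 0.14 for ATF4 KO (adjusted p = 0.000171, edgeR) and -1.41 ± 0.14 for CEBPG KO (adjusted p = 5.83e-06, edgeR). The sterol sulfotransferase gene Sult2b1 rose in each genotype (1.46 ± 0.33, 1.47 ± 0.32 and 0.996 ± 0.32) and Gramd1a, which moves sterol from the plasma membrane, was the next in the knockouts (1.19 ± 0.057 and 0.91 ± 0.057). The lowest were Gramd1c (-0.75 ± 0.30) and Stard5, a sterol carrier (-0.65 ± 0.14), in Rosa26 cells, and Stard5 (-0.60 ± 0.14 and -0.53 ± 0.14) and Soat1, the other esterifying enzyme (-0.42 ± 0.084 and -0.55 ± 0.084), in the knockouts. Untreated, none of the 15 passed in edgeR in either knockout, with 1 in ATF4 KO and 2 in CEBPG KO cells at an unadjusted p under 0.05 and 0 called by DESeq2 in each.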

How the data were processed

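Poly-A RNA of 18 libraries was sequenced after a directional library preparation, per the labels' protocols. The deposited values are raw read counts per gene for 14695 genes, a table whose low genes the authors had already removed. FastQC, MultiQC, Trimmomatic, STAR, HTSeq, edgeR and the build GRCm39 are named in the submitters' processing notes. Versions, strand setting and annotation are not stated there, so overlapping and antisense genes cannot be told apart where strand was not used.

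Of 449 rows with no gene name, 431 were named by their gene ID. Counts were scaled by TMM and fitted with edgeR 4.0.16 (R 4.3.3, limma 3.58.1) in 1 quasi-likelihood model of 6 groups over all 18 libraries. The fit was first run on simulated counts of 14695 genes, with changes set in treated Rosa26 libraries. It recovered 51 of 97 changes of 0.5 on the log2 scale and 64 of 103 changes of 1, and 5.74% of its calls were false. Far fewer genes changed there than the 7008 called in the real comparison, which makes the adjusted threshold stricter. The shares recovered therefore do not measure how many real changes were found. A gene that did not pass may still have changed. P-values were adjusted by Benjamini-Hochberg over 14695 genes in each of 12 comparisons, and a call is an adjusted p under 0.05. An interval beside a difference is the model's 95% interval. Totals of 14190361 to 20281602 counts set the precision, and intervals cover the spread between these libraries.

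RPKM, exon overlaps and shared 50-base words used exon lengths and sequences of a GRCm38 annotation, and upstream sequences came from RefSeq on GRCm38.p6. The alternatives were RLE and upper-quartile scaling, DESeq2 1.42.0, a mean of at least 5 CPM, only the groups compared, the replicate number as a block, the 3 libraries that stood apart left out, and each library left out. Every member was accounted for. Values in every library were given for 8 set regulators and enzymes and for the 3 largest called changes of each comparison, and of each related list up to 2 genes were named at either end. Members, lists and the 3 libraries were chosen with earlier results of these data known. Some genes of the pathway are not analysed here.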

Additional observations from a re-analysis of the deposited data

Results flagged for a closer look

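The drug effect differed between ATF4 KO and Rosa26 cells by the interaction test for 3 members. The differences, ATF4 KO minus Rosa26, were 0.82 for Insig1 (edgeR adjusted p = 0.000929), 0.45 for Srebf1 (edgeR adjusted p = 0.00411) and 0.45 for Sc5d (edgeR adjusted p = 0.012). In each the untreated ATF4 KO libraries were below the untreated Rosa26 libraries.

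The same interaction passed for 11 of 78 measured genes of the related lists (14.1%), beside 6.42% of all genes. The lists were chosen with earlier results of these data known, so this excess is description and not a test. Scd1 differed by 2.23, Abca1 by 1.58, Scd2 by 1.46, Mylip by 0.89, Rnf145 (a ubiquitin ligase of sterol control) by 0.68, Abcg1 by 0.60, Gramd1a by 0.49 and Osbpl8 (a lipid transfer protein) by 0.41. Soat2 differed by -1.02, Ebpl by -0.57 and Fntb (a farnesyltransferase subunit) by -0.33. Adjusted p-values in edgeR ran from 1.1e-07 (Scd2) to 0.0459 (Ebpl).

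The choice of the lists also limits the next share. The interaction of CEBPG KO with Rosa26 cells passed for 5 of the 78 (6.41%), beside 2.47% of all genes. Those 5 were Scd2 at 0.81, Mylip at 0.78, Abcg1 at 0.53, Cyb5r3 at -0.53 and Soat2 at -1.41. Their adjusted p-values in edgeR ran from 5.83e-06 (Soat2) to 0.0425 (Cyb5r3). For Scd2 the drug effect also differed between the knockouts, by -0.65 as CEBPG KO minus ATF4 KO (edgeR adjusted p = 0.0211).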

How the results depend on the processing

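No called result that was checked reversed direction under any alternative. The direction of results that were not called was not checked. Of 387 called results of members and related genes, the alternatives ended 5 calls with RLE scaling, 11 with upper-quartile scaling, 4 with DESeq2, 25 with only the groups compared, 13 with the replicate block and 5 without the 3 libraries that stood apart. The filter of 5 CPM ended 3 calls of 369 and removed the other 18, those of Fdps, Paqr3, Scd1, Gramd1c, Sult2b1 and Nr1h3, which were not checked under it. Leaving out 1 library ended 6 to 33 calls. Upper-quartile scaling moved the median of all genes by 0.108 for halofuginone in CEBPG KO cells, and no other scaling moved one by over 0.1.

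For untreated CEBPG KO against Rosa26 the 13 called members became 20 with only the groups compared and 6 to 18 with 1 library left out. For treated CEBPG KO against Rosa26, 17 became 10 with only the groups compared. The interaction with ATF4 KO had 3 called members, and 5 with RLE scaling, upper-quartile scaling, DESeq2 or the 5 CPM filter (Acat2 and Hmgcs1 added), 7 without the 3 libraries and 3 to 7 with 1 library left out. The interaction with CEBPG KO had 0, and 1 with upper-quartile scaling, 2 with DESeq2, 2 with the filter, 2 without the 3 libraries and 0 to 2 with 1 library left out. The drug effects of the knockouts against each other gave 0, 1 with DESeq2 and 2 without the 3 libraries. The treated knockouts against each other gave 0, 1 with DESeq2, 3 without the 3 libraries and 0 to 2 with 1 library left out. The added comparison of the untreated knockouts gave 13, and 4 to 15 with 1 library left out. The share of all genes called also moved between fits, as given above for several of them. A changed count of members is therefore not read alone, and the causes were not tested.

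No pairing by replicate number was seen. The 45 correlations between same-numbered libraries' deviations ran from -0.687 to 0.527, with a median of -0.005 and 9 over 0.1. The 90 between different numbers had a median of 0.006 and 23 over 0.1, and 4 of 18 libraries correlated best with their own number. The deviations are from means of 3 libraries, some of which stood apart, so this check cannot exclude a pairing. With the replicate number as a block the counts were 11 for untreated CEBPG KO against Rosa26 and 10 for the untreated knockouts against each other. The count was 21 for treated ATF4 KO against Rosa26, and the other counts of members did not move. The shares of all genes in the block fits are not given here, so these counts are not read alone. Depth limits Fdps, with 4 to 68 counts in a library, and the least abundant related genes, such as Nr1h3.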
